A study of Homo sapiens with 12 samples.

Results

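Many genes on a 3' expression array are read by more than 1 probe set, each a group of short probes against a stretch of RNA, and these usually move together. The genes described here are those whose probe sets moved in opposite directions after a glucocorticoid. They were chosen by their own 24 h values: at least 1 probe set had to be higher with dexamethasone by a log2 of 0.6 or more and another lower by 0.6 or more, each with a mean of at least 5 over the 12 arrays and with 1 sign in all 3 experiments of the same number. Of 4561 genes with 2 or more probe sets at that level, 4 met the rule (0.0877%): HNRNPD, GPATCH2L, PLXNC1 and IGHM. They did so through 10 of the 26 probe sets that carry their symbols. The array holds 54675 probe sets, and 9185 of its 19775 genes with a single symbol had a probe set at that level.

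The cells were CCRF-CEM-C7H2, a glucocorticoid-sensitive line of T-cell acute lymphoblastic leukemia, which as 1 line of cultured cells stands for 1 patient's leukemia. Dexamethasone, a synthetic glucocorticoid, was given at 100 nM and its carrier ethanol at 0.1%, and cells were taken at 6 h or at 24 h. Each of the 4 groups had 3 arrays (Affymetrix HG-U133 Plus 2.0), 1 per independent experiment, with experiments numbered 0, 1 and 3 at 6 h and 1, 2 and 3 at 24 h. All values are log2 expression, so a difference of 1 is a doubling.

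A gene can give several RNAs, through other start sites, other splicing, introns that stay in the RNA, or other cleavage and polyadenylation sites that set where the RNA ends. Probe sets on this array lie mostly near such ends, so 2 of them can read different RNAs of a gene. A glucocorticoid binds its receptor, NR3C1, which then acts at DNA elements near its target genes, and in lymphoid leukemia cells it leads to arrest and death. Which stretch of its gene each probe set reads was not analysed here, so the values below describe possible transcript forms and name none. The arrays read bulk RNA, in which fewer cells with a transcript and less of it per cell cannot be told apart.

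The cells carried the markers of their label. Of 11 T-lineage markers, 10 had a mean of at least 4, the level taken here as background, and NOTCH3 did not. Myeloid markers (0 of 4) and the measured erythroid marker (0 of 1) were below it, as were 3 of 4 stromal markers, with COL1A1 above it. The receptor gene NR3C1 was above its controls by 1.94 at 6 h and by 1.95 at 24 h, and the receptor's target TSC22D3 (GILZ) by 8.65 and 9.65, without overlap between the groups. Array medians ran from 3.01 to 3.12, between 22560 and 22999 probe sets per array reached a log2 of 4, and arrays of 1 group correlated at r of 0.997 or more. Codes in the labels place the 6 h dexamethasone arrays, the 6 h ethanol arrays and all 24 h arrays in 3 separate sets, so at 6 h this code and the treatment cannot be told apart.

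Opposed probe sets were rare next to concordant ones. In 484 genes (10.6% of the 4561) 2 or more probe sets were past the same size and all were higher, and in 560 (12.3%) all were lower. With the size lowered to 0.4 the opposed genes numbered 32 (0.702%). The members nearest the threshold of 0.6 were PLXNC1, whose smaller difference was -0.71, GPATCH2L (0.77) and HNRNPD (-1.03). Just outside lay SRSF1, a splicing factor, with 0.57 and -1.05 in its probe sets, PSMG4, a proteasome assembly chaperone, with 0.57 and -1.41, and PHF12, a chromatin protein, with 0.55 and -0.53.

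**Figure D1:**
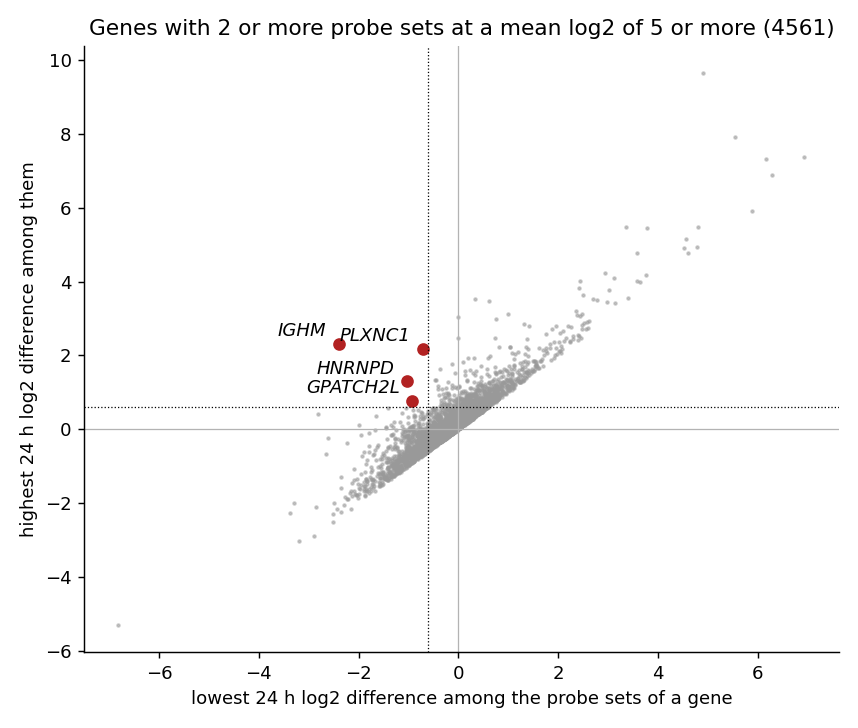
Each point is 1 of 4561 genes with 2 or more probe sets at a mean log2 of at least 5, plotted by the lowest (x) and highest (y) 24 h difference, dexamethasone minus ethanol in log2, among its probe sets. Dotted lines mark -0.6 and 0.6, and the 4 red genes are those past both.

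RefSeq (GRCh38.p14) lists 4 transcripts for HNRNPD, 6 for PLXNC1 (2 of them curated) and 22 for GPATCH2L (10 curated), against a median of 6 (3 curated) over the 4559 of 4561 genes that matched. It lists none for IGHM, whose product is encoded by joined segments. GPATCH2L and PLXNC1 have 2 listed start sites each, as do 25.8% of these genes with 2 or more. The stretches around the start sites, from 250 bases before to 50 after, are given for PLXNC1, whose 2 starts lie 114042 bases apart and differ most in place, and for HNRNPD, whose window alone among the 5 of these genes holds the receptor motif searched for. Capitals mark that motif, the glucocorticoid receptor's hexamer AGAACA on either strand, where TGTTCT is its other strand. The first PLXNC1 window is chr12:94148327-94148626, the second chr12:94262369-94262668, both on the plus strand, and the HNRNPD window is chr4:82373942-82374241 on the minus strand.
PLXNC1 first start: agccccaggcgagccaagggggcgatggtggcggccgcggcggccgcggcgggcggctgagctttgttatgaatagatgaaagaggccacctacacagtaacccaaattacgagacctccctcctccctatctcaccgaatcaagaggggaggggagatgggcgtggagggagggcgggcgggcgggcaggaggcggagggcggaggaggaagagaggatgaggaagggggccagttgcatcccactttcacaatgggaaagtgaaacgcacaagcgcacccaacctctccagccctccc
PLXNC1 second start: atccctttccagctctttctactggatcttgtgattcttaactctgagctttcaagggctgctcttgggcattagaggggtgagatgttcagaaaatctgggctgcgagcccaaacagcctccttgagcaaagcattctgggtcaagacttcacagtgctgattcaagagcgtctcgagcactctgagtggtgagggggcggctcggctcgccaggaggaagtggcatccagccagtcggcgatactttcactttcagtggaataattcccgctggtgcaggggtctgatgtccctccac
HNRNPD start: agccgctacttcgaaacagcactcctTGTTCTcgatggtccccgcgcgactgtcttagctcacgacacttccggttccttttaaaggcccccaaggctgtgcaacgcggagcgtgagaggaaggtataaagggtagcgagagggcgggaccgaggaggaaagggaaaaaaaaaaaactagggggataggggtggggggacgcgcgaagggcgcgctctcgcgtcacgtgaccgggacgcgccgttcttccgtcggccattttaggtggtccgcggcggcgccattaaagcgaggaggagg
The motif in the HNRNPD window begins at position -224 from the start. Of all 35116 listed windows of 300 bases, 14.8% hold it, so a match is common and marks no binding. GC content was 64.0% and 53.7% in the PLXNC1 windows, 60.7% in HNRNPD, and 69.0% and 38.0% in the GPATCH2L windows, whose starts lie 2432 bases apart, against a median of 58.7%. IGHM has no window in the table.

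HNRNPD encodes AUF1, an RNA-binding protein that binds AU-rich elements in messenger RNAs and regulates their decay, and is known to give several protein isoforms by alternative splicing. The gene lies at chr4:82352498-82373991 and overlaps no other listed gene, whereas 62.4% of the genes with 2 or more probe sets overlap one. It has 9 probe sets, of which 7 reached the level of 5.

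At 24 h probe set 213359_at of HNRNPD read 9.92, 10.01 and 10.06 with ethanol and 11.29, 11.23 and 11.42 with dexamethasone in experiments 1, 2 and 3. All 3 treated arrays lay above the controls, with a mean difference of 1.31, or 2.49-fold. Probe set 221480_at read 10.24, 10.35 and 10.16 with ethanol and 9.33, 9.39 and 9.07 with dexamethasone, a difference of -0.98 in the opposite direction.

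Probe set 229129_at went the same way as 221480_at, with 8.42, 8.63 and 8.59 in ethanol and 7.47, 7.86 and 7.24 in dexamethasone, and a difference of -1.03. In each of the 3 experiments the 1 higher and the 2 lower sets of HNRNPD thus parted by a similar amount, and the gap between 213359_at and 229129_at widened by 2.33, 1.98 and 2.71.

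The brightest sets of HNRNPD differed little on the deposited scale. Their means over the 12 arrays were 13.61 for 221481_x_at, 14.36 for 200073_s_at and 14.07 for 209330_s_at, and they differed at 24 h by -0.07, -0.09 and -0.13. Another set, 239040_at, differed by 0.00. Scaled to the poly-A spike controls, which read higher with dexamethasone by 0.34 at 24 h, these sets read -0.40, -0.42, -0.46 and -0.33, in the direction of the lower sets. The remaining pair, 205183_at and 227744_s_at, had means below 4. In ethanol alone 221480_at was lower at 24 h than at 6 h by 0.53 and 229129_at by 0.28, while 213359_at was higher by 0.34. The sets that met the rule thus also parted between the ethanol groups, in a comparison that crosses the label codes.

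GPATCH2L encodes a protein with a G-patch domain, which is found in proteins that handle RNA, and the role of GPATCH2L itself is little known. It lies at chr14:76151922-76235555 and overlaps 1 listed gene, the long noncoding RNA LOC105370575. Of its 8 probe sets 7 reached the level of 5, and 6.38% of the 4561 genes have 5 or more at that level.

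Probe set 229297_at of GPATCH2L read 5.75, 6.28 and 6.67 with ethanol and 6.89, 6.85 and 7.28 with dexamethasone at 24 h. Probe set 235302_at read 5.24, 5.37 and 5.72 with ethanol and 5.78, 5.81 and 6.64 with dexamethasone. Both were higher with dexamethasone, by 0.77 and 0.64, and in both the highest control came close to the lowest treated array.

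Against them, probe set 231970_at read 7.10, 7.38 and 7.07 with ethanol and 6.11, 6.19 and 6.48 with dexamethasone. Its difference was -0.92, with all treated arrays below the controls. The sets of GPATCH2L outside the rule differed on the deposited scale by 0.55 for 229514_at, 0.51 for 229673_at, 0.28 for 219720_s_at, 0.19 for 239478_x_at and -0.02 for 229520_s_at. On the spike scale they read 0.21, 0.17, -0.06, -0.15 and -0.36, while no set that met the rule in any of the 4 genes changes sign. The gene therefore had 1 set lower by 0.6 or more among 8. Without the ethanol array of experiment 1 at 24 h, GPATCH2L no longer met the rule. On the spike scale it did not meet the rule either, since 229297_at read 0.44 and 235302_at 0.30, both under 0.6.

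PLXNC1 encodes plexin C1, a receptor for the semaphorin SEMA7A that acts in cell adhesion and migration of immune cells. The gene spans chr12:94148577-94307675 and overlaps 3 listed genes, the noncoding PLXNC1-AS1 and LOC124902987 and the protein-coding CEP83. None of these has a probe set listed here under a single symbol.

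Probe set 213241_at of PLXNC1 read 4.49, 4.63 and 4.64 with ethanol at 24 h, not far above background, and 7.07, 6.83 and 6.44 with dexamethasone. The difference was 2.19, or 4.56-fold. Probe set 235328_at read 5.79, 5.87 and 6.05 with ethanol and 5.04, 5.30 and 5.25 with dexamethasone, a difference of -0.71.

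The lower set of PLXNC1 was below its control by 0.75, 0.57 and 0.80 in experiments 1, 2 and 3. The other sets of the gene, 206470_at and 206471_s_at, had means of 2.77 and 3.56. The first was below a log2 of 4 on all 12 arrays, and its 24 h differences of 0.19, 1.30 and 0.22 were led by 1 array, the dexamethasone array of experiment 2 at 3.93. The second was below 4 on every ethanol array, so neither gives a direction for the gene.

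IGHM encodes the constant region of the immunoglobulin mu heavy chain, the part shared by IgM antibodies, and is known for its splicing into membrane and secreted forms in B cells. It lies at chr14:105851966-105856217 within the heavy chain locus IGH. It is a gene of the B lineage, and the cells here are of the T lineage. Both of its opposed probe sets have names ending in _x_at, which the manufacturer gives to sets with probes that can also match other sequences.

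Probe set 211634_x_at of IGHM read 5.13, 5.14 and 4.27 with ethanol at 24 h and 7.02, 6.90 and 7.59 with dexamethasone. Its difference of 2.32, or 5.00-fold, was largest in experiment 3 (3.32), where the control was lowest. Probe set 216491_x_at read 8.70, 8.43 and 8.36 with ethanol and 6.10, 6.20 and 6.01 with dexamethasone, a difference of -2.40, or 5.26-fold lower in linear terms.

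These were the widest opposed differences of the 4 genes. Sets that list IGHM among several symbols also held both directions, as given further below. The other sets with IGHM as their only symbol did not carry these differences. Probe sets 209374_s_at and 212827_at were at background, with means of 3.19 and 2.49, and 215949_x_at, at 4.17, differed by 0.32 (-0.02 on the spike scale). A probe set listed under the locus IGH, 211693_at, had a mean of 5.90 and differed by 0.03. Of the B-cell markers, CD79A lay between 9.78 and 11.80 and was higher with dexamethasone at 24 h by 1.55, while MS4A1 and PAX5 were at background on every array. Its part in the IGHM values was not tested. Left out, the _x_at sets take IGHM out of the opposed genes and leave the other 3.

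**Figure D2:**
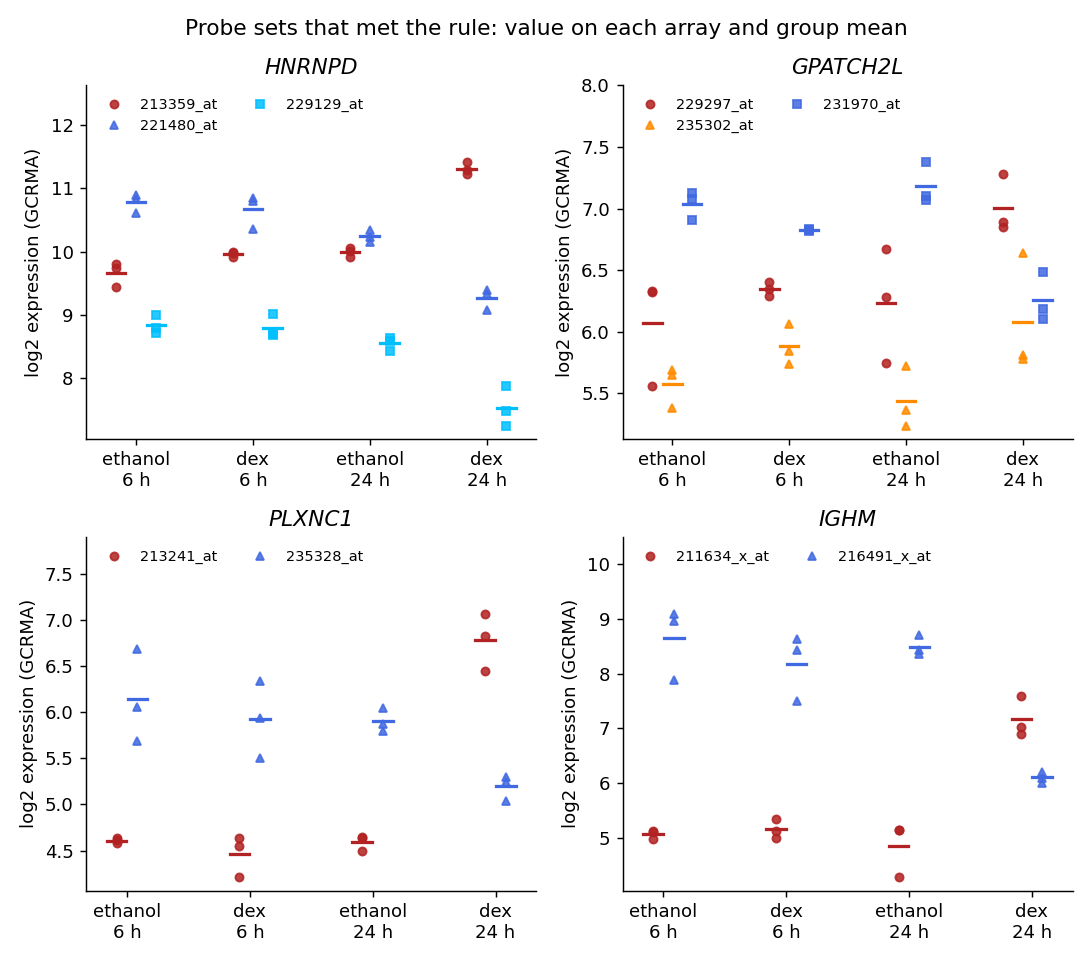
Log2 expression of the 10 probe sets that met the rule, on every array, in panels by gene; bars are group means of 3 arrays, red and orange sets were higher and blue and light blue sets lower with dexamethasone (dex) at 24 h. The 6 h groups lie closer to each other than the 24 h groups. IGHM 211634_x_at had ethanol and dexamethasone means of 5.07 and 5.15 at 6 h, and of 4.85 and 7.17 at 24 h. Other sets parted more than that at 6 h, among them HNRNPD 213359_at (9.66 and 9.97), GPATCH2L 235302_at (5.58 and 5.88) and IGHM 216491_x_at (8.65 and 8.19).

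**Figure D3:**
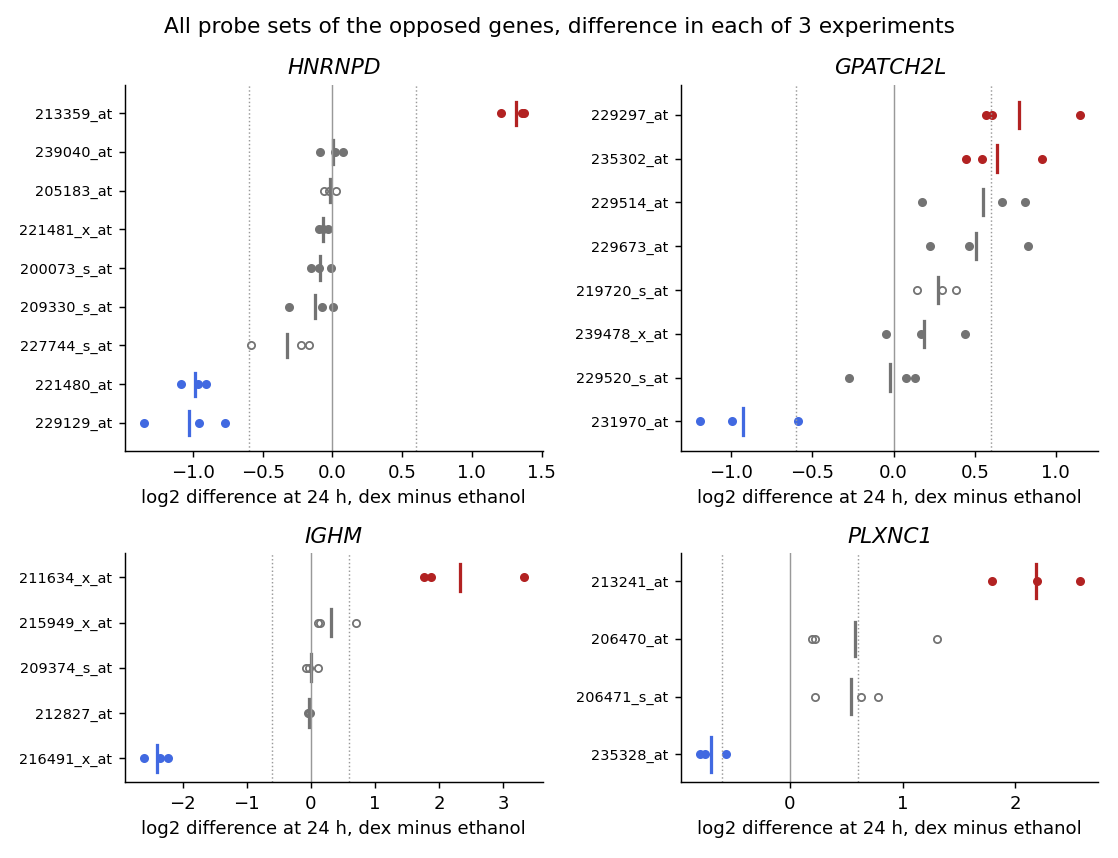
The 24 h log2 difference, dexamethasone minus ethanol, of all 26 probe sets of the 4 genes; points are the 3 experiments, bars their means, open points mark sets with a mean under 5, and dotted lines mark -0.6 and 0.6. Red and blue sets met the rule, as HNRNPD 213359_at at 1.31 and 229129_at at -1.03, and grey sets lie mostly between them.

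The opposed sets were mostly of the plain kind. Of the 10 sets, 8 had names ending in _at alone and 2 in _x_at, and 0 ended in _s_at, the ending for probes shared by several transcripts. Among all sets at the level of 5, 55.3% were plain, 33.8% _s_at, 9.00% _x_at and 1.91% _a_at. The span of no member held a listed microRNA gene, as 6.38% of the genes with 2 or more probe sets do.

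The 6 h arrays took no part in the size and sign of the rule, so the same 10 sets could be tested there. They did count in the level floor of 5. PLXNC1 213241_at met that floor only through its 24 h dexamethasone arrays, with a mean of 6.78. Its means were 4.61 and 4.46 at 6 h in ethanol and dexamethasone, and 4.59 at 24 h in ethanol. The limma fit used here, with its SE and p-values, left out the pairing by experiment number. With it, 0 of the 10 passed an adjusted p of 0.05 by limma in their 24 h direction and 0 against it. Over all 23265 probe sets tested, 2.66% were called higher and 3.54% lower. At an unadjusted p under 0.05 there was 1, HNRNPD 213359_at, with a difference of 0.31 ± 0.10 (limma SE, n = 3 arrays per group, adjusted p = 0.103). Its ethanol arrays read 9.44, 9.79 and 9.74 and its dexamethasone arrays 9.92, 10.00 and 9.98, without overlap. The sets lower at 24 h in HNRNPD were near their controls at 6 h, at -0.11 for 221480_at and -0.04 for 229129_at.

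In the other genes no 6 h value passed the test on the deposited scale without the block. IGHM 216491_x_at read 9.10, 8.96 and 7.89 with ethanol and 8.43, 8.64 and 7.49 with dexamethasone, a difference of -0.46 ± 0.33 (adjusted p = 0.481 by limma). It was lower in each experiment, although the arrays of experiment 3 were low in both groups. Its counterpart 211634_x_at differed by 0.08 ± 0.24. PLXNC1 213241_at, which was higher by 2.19 at 24 h, differed at 6 h by -0.14 ± 0.15, and 235328_at by -0.21 ± 0.25. GPATCH2L 229297_at differed by 0.27 ± 0.25, 235302_at by 0.31 ± 0.22 and 231970_at by -0.21 ± 0.12.

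Arrays of the same experiment number deviated together, and with the replicate block 2 sets passed at 6 h in their 24 h direction. They were HNRNPD 213359_at (difference 0.31, adjusted p = 0.0443 by limma) and IGHM 216491_x_at (-0.46, adjusted p = 0.0290), where 5.56% of all sets were called higher and 7.50% lower. Scaled to the poly-A spike controls, which read higher with dexamethasone by 0.47 at 6 h, 5 sets passed in their 24 h direction, all of them lower, and PLXNC1 213241_at passed against it (-0.61, adjusted p = 0.00869). HNRNPD 213359_at (-0.16), IGHM 211634_x_at (-0.39), and GPATCH2L 229297_at (-0.20) and 235302_at (-0.16) changed sign on it at 6 h. On that scale 1.18% of all sets were called higher and 65.0% lower, so calls of lower sets were the common case there.

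A change within a gene can be read as a gap, the set highest at 24 h minus the set lowest at 24 h on the same array, in which any shift of a whole array cancels. At 6 h 0 of the 4 gaps were called with limma, and 0 had an unadjusted p under 0.05, against 0.460% of 4561 genes called wider and 0.0439% narrower. The gap of HNRNPD widened by 0.56, 0.24 and 0.22 in experiments 0, 1 and 3 (mean 0.34 ± 0.19, adjusted p = 0.483 by limma). That of IGHM was wider by 0.54, 0.56 and 0.54 (0.55 ± 0.36, adjusted p = 0.573 by limma). The IGHM experiments gave nearly the same value although the levels themselves varied between experiments. These SE and p-values leave out the pairing by experiment number. With the replicate block 0 of the 4 gaps were called and 1 had an unadjusted p under 0.05 by limma. The adjusted p by limma was then 0.276 for HNRNPD, 0.338 for IGHM, 0.327 for GPATCH2L and 0.872 for PLXNC1.

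The gap of GPATCH2L was wider by 1.09, 0.04 and 0.32 (0.48 ± 0.26, adjusted p = 0.483 by limma), most of it in experiment 0. The gap of PLXNC1 differed by -0.26, 0.18 and 0.28 (0.07 ± 0.30, adjusted p = 0.960 by limma), with no common sign. At 24 h, where the rule chose the sets, the mean gaps were 2.34 in HNRNPD, 4.72 in IGHM, 1.70 in GPATCH2L and 2.89 in PLXNC1, with no test.

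**Figure D4:**
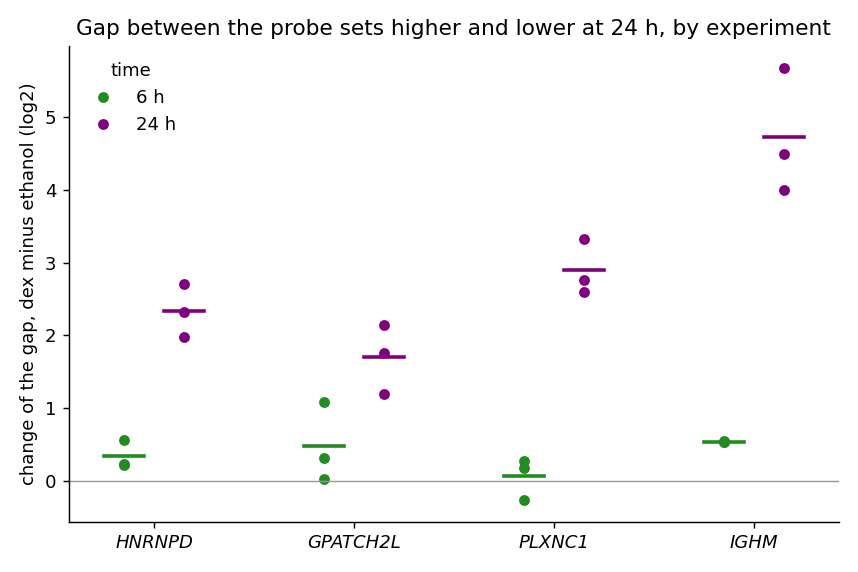
Change of the within-gene gap in log2, dexamethasone minus ethanol, for the set highest minus the set lowest at 24 h; points are experiments (3 at 6 h in green, 3 at 24 h in purple) and bars their means. At 6 h the means lie between 0.07 in PLXNC1 and 0.55 in IGHM, and at 24 h, the time used to choose the sets, between 1.70 and 4.72.

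Transcript ends are set by the cleavage and polyadenylation machinery, so a list of 28 genes was read in the same fit, 25 of them measured. It holds genes of this machinery and others outside it, such as PABPC1 and CDK12. At 6 h 0 were called higher and 0 lower by limma, with 1 (CPSF1, 0.71) and 2 (CSTF3, -0.31, and CDK12, -0.29) at an unadjusted p under 0.05, where 2.72% and 3.77% of 9947 genes were called. Their median difference was 0.04, and that of all genes -0.0023. At 24 h 4 were called higher and 7 lower, where 23.9% and 28.1% of all genes were called. The median of the list was then -0.11 and that of all genes -0.02, so its counts stood near those of the genes at large.

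The genes of this list that rose at 24 h included FIP1L1, a subunit that joins the cleavage factor to the polymerase, by 0.90 ± 0.10, and PAPOLG, a nuclear poly(A) polymerase, by 0.85 ± 0.11 (limma SE, n = 3 per group). PABPN1 (0.61 ± 0.17) and PABPC1 (0.17 ± 0.06), the nuclear and the cytoplasmic poly(A)-binding proteins, were the others, named after their values were seen, and the difference of PABPC1 was -0.17 on the spike scale. CSTF3, the scaffold of the cleavage stimulation factor, fell by 0.57, and CDK12, a kinase of RNA polymerase II, fell by 0.54. The others called lower, also named after their values were seen, were THOC5 (-0.35), NUDT21 (-0.30), PAPOLA (-0.26), CPSF6 (-0.26) and CSTF2T (-0.25).

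With the replicate block 2 genes of the list, CSTF3 (adjusted p = 0.0181 by limma) and CDK12 (adjusted p = 0.0269), were called lower at 6 h, where 7.53% of genes were. On the spike scale 20 were called lower at 6 h (68.0% of genes), and at 24 h 2 (FIP1L1 and PAPOLG) were called higher and 15 lower, where 9.65% and 47.0% of genes were. With the block the list counts at 24 h were 6 higher, with CDK13 and RBBP6 added, and 9 lower, with CPSF2 and CPSF3 added. Of all genes, 28.8% and 32.4% were called. These calls rest on the brightest tested set of each gene, and in CDK13 and CPSF2 another set differed the other way. At the level floor the 24 h differences of CDK13 sets ran from -0.397 to 0.434, and those of CPSF2 sets from -0.294 to 0.161. No value here ties the list to the opposed probe sets.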

How the data were processed

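Per the submitters' processing notes, the deposited log2 expression values of the 12 arrays come from GCRMA, run by the authors in R 2.6. Its settings, and the arrays normalized as 1 batch, are not stated there. It corrects background by probe sequence and gives no detection call, so levels near background are compressed.

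Platform symbols were updated through the GRCh38.p14 RefSeq table. Of the probe sets 41097 had 1 symbol, 1801 several and 11777 none, and only the first were named. The 62 control sets were left out. Group means over the 12 arrays were fitted (limma 3.58.1, R 4.3.3, 8 residual degrees of freedom) on the 23265 sets at a log2 of 4 or more on at least 3 arrays, with Benjamini-Hochberg adjustment over all of them. The gap was fitted over 4561 genes in the same way. The list took 1 tested set per gene, that with the highest mean. The test was tried on simulated data. P-values measure the spread among experiments of 1 cell line.

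The members and lists were chosen with earlier results of these data known. Every opposed gene was named, with the 3 nearest genes outside the threshold, NR3C1, TSC22D3, and up to 4 list genes by p per time. Same-numbered arrays correlated, after removal of group means, at 0.417, 0.627 and 0.609 at 6 h and at 0.286, 0.238 and 0.424 at 24 h. The numbers were therefore taken to pair the samples. No other pair of a dexamethasone and an ethanol array of the same time exceeded 0.0500. With group means of 3 arrays removed, a positive same-numbered correlation itself lowers the others, so these add no separate evidence. Alternatives covered the rule's settings, the block, scaling, filters, the variance model, probe set kinds and leaving out each array. Promoters are from RefSeq (GRCh38.p14).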

Additional observations from a re-analysis of the deposited data

Results flagged for a closer look

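Another 30 probe sets list IGHM among several symbols and were kept out of the comparisons above, since they name no single gene. Of these 7 had a mean of at least 4, and 3 of at least 5. Probe set 211637_x_at, with a mean of 7.87, was lower with dexamethasone at 24 h (difference -2.51) and differed by -0.66 at 6 h. Probe set 211649_x_at, with a mean of 5.63, was higher at 24 h by 1.41 and differed by 0.33 at 6 h. The remaining set with a mean of at least 5, 211639_x_at (mean 7.17), differed by -0.51 at 24 h and by -0.08 at 6 h. The sets with several symbols thus also held both directions, and which sequence each reads was not tested.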

How the results depend on the processing

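The number of opposed genes was 4 as set, 32 at a size of 0.4, 2 at 0.8 and 2 at 1 (HNRNPD and IGHM). It was 2 at a level floor of 6 (GPATCH2L and HNRNPD) and 10 with poly-A spike scaling, which kept 3 of the 4 and lost GPATCH2L. Leaving out 1 array at 24 h gave 3 to 7 genes: GPATCH2L left without the ethanol array of experiment 1, and 7 genes were counted without the dexamethasone array of experiment 2 or without the ethanol array of experiment 3.

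At 6 h the replicate block raised the calls in the 24 h direction from 0 to 2, and the list genes called lower from 0 to 2, and changed no other 6 h call of the members. At 24 h it moved the list from 4 to 6 higher and from 7 to 9 lower. Spike scaling gave 5 such calls and 1 against, with 20 list genes lower at 6 h, 2 higher and 15 lower at 24 h. It turned the 6 h values of HNRNPD 213359_at (-0.16), IGHM 211634_x_at (-0.39), and GPATCH2L 229297_at (-0.20) and 235302_at (-0.16). When 1 array was left out, 6 h values that turned ran from -0.146 to 0.0454 for HNRNPD 229129_at, from -0.199 to 0.0512 for HNRNPD 221480_at, from -0.0139 to 0.162 for IGHM 211634_x_at, from -0.442 to 0.0576 for PLXNC1 235328_at and from -0.23 to 0.31 for the PLXNC1 gap. Others kept their sign but moved by over 1.5 times. IGHM 216491_x_at ran from -0.118 without the dexamethasone array of experiment 3 to -0.845 without its ethanol array, and the IGHM gap from 0.216 to 0.877 without the same arrays. Without the ethanol array of experiment 0, GPATCH2L 229297_at was 0.0167, its gap 0.181 and HNRNPD 213359_at 0.197. PLXNC1 213241_at ran from -0.231 without the dexamethasone array of experiment 1 to -0.0167 without that of experiment 0. None of these was called. The causes were not tested. The 4 gaps were called under none of the alternatives run; where sets were removed by kind or by the filter at 6, IGHM or PLXNC1 could give no gap. Signal near background limits PLXNC1 206470_at and 206471_s_at and IGHM 209374_s_at and 212827_at, which were not taken to give a direction.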
